A study of Mus musculus with 2 samples.

Results

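The genes described here are 36 cell cycle genes that mark successive phases of the division cycle, found by symbol among the 31053 genes listed in the count matrices. They comprise 10 genes of S phase (Mcm2, Mcm3, Mcm4, Mcm5, Mcm6, Mcm7, Pcna, Tyms, Rrm2 and Pclaf), 3 genes of the entry into S phase (G1/S: Ccne1, Ccne2 and Cdc6), 20 genes of G2 phase and mitosis (G2/M: Mki67, Top2a, Cdk1, Ccnb1, Ccnb2, Birc5, Cenpf, Ube2c, Tpx2, Cdc20, Plk1, Aurka, Aurkb, Bub1, Kif11, Kif20a, Nusap1, Cks2, Kif15 and Ccna2) and 3 genes that resting cells also make (Hmgb2, Tubb5 and Stmn1, called broad). They were read in 2 single-cell RNA libraries of mouse bone marrow, 1 from wild-type animals (WT, LCR1+/+) and 1 from animals in which LCR1 was knocked out (KO, LCR1-/-). All were C57BL/6 mice (C57BL/6J in the design text) of 8 to 12 weeks, with no treatment named. Each library pooled animals of 1 genotype, as many males as females, and a sort had kept live cells that carried CD45 and CD127 and no lineage marker, at a purity above 90%. The series was made to learn what losing LCR1 does to group 2 innate lymphoid cells (ILC2) as they develop. The labels do not say where LCR1 lies, so no transcript checks the genotype here. With 1 library per genotype nothing was tested, and every interval below is a 95% interval that covers counting error only. Pairs of values are given with WT first and KO second.

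A dividing cell copies its DNA in S phase and parts the copies in mitosis. The MCM proteins form the helicase that opens the DNA, Pcna is the clamp that holds the polymerases on it, Pclaf binds Pcna, and Tyms and Rrm2 make DNA precursors. Cyclins E1 and E2 (Ccne1, Ccne2) drive the entry into S phase with their kinase, and Cdc6 loads the MCM helicase. Cyclins A2, B1 and B2 with the kinase Cdk1 drive the entry into mitosis, while Cdc20 and Ube2c belong to the ubiquitin machinery that ends it. Transcription of S phase genes is released when retinoblastoma proteins let go of E2F factors, and many G2/M genes are held back in resting cells through a short element called CHR. In marrow, early progenitors divide often and mature lymphocytes mostly rest.

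Promoter windows, 250 bases before to 50 bases after the start of a gene, came from RefSeq (build GRCm38.p6) for 29 of the 36 genes and for 27025 genes in all. Both strands were searched for E2F-type letters (TTTCCCGC, TTTCGCGC, TTTGCCGC or TTTGGCGC), for CHR (TTTGAA) and for the CCAAT box (CCAAT). A match describes letters only. The E2F-type letters stood in 5 of 9 S phase promoters (Mcm3, Mcm5, Mcm6, Mcm7 and Pclaf), in 1 of 2 G1/S promoters (Cdc6) and in 2 of 16 G2/M promoters (Cdk1 and Kif15), against 2.605% of all windows. CHR stood in 11 of 16 G2/M promoters, in 1 of 9 S phase promoters (Mcm2) and in 1 of 2 broad promoters (Hmgb2), against 20.2% of all windows. CCAAT stood in 8 of 9 S phase and 13 of 16 G2/M promoters, against 41.1% of all windows, so it did not part these phases. The 250 bases before the start are shown for 3 genes of the earlier phases, with E2F-type letters of either strand in capitals, because few other promoters hold them. Mcm5 lies at chr8:75109259-75109508 on the plus strand, Mcm6 at chr1:128359706-128359955 on the minus strand and Cdc6 at chr11:98907901-98908150 on the plus strand. In Mcm5, and at the farther of the runs in Mcm6, a match on one strand overlaps a match on the other.
Mcm5: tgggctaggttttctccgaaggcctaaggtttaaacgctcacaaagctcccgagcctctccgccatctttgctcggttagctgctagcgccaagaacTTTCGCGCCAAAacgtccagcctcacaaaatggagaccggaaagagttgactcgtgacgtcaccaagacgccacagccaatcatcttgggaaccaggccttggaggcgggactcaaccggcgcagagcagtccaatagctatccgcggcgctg
Mcm6: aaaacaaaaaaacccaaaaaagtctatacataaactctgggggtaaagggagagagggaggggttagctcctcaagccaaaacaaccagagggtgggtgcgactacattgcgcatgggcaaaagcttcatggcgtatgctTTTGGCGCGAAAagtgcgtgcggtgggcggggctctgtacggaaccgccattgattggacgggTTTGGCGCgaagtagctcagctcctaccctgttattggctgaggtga
Cdc6: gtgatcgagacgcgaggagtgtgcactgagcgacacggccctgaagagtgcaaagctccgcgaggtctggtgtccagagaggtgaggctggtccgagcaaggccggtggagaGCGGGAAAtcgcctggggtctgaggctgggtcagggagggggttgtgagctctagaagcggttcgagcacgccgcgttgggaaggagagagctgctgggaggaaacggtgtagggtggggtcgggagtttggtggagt

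The same stretch is shown for 4 G2/M genes with CHR of either strand in capitals, because CHR was the element that the G2/M promoters shared and the S phase promoters mostly lacked. Cdk1 lies at chr10:69352913-69353162, Top2a at chr11:99024190-99024439 and Cdc20 at chr4:118437344-118437593, all on the minus strand, and Ube2c lies at chr2:164769679-164769928 on the plus strand. The CHR letters nearest the start begin 15 bases before it in Cdk1, 18 in Cdc20, 23 in Top2a and 29 in Ube2c.
Cdk1: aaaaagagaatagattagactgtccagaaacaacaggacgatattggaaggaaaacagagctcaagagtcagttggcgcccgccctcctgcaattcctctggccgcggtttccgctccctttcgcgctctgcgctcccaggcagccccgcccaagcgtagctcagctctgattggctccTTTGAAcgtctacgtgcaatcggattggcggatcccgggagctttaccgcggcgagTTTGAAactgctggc
Top2a: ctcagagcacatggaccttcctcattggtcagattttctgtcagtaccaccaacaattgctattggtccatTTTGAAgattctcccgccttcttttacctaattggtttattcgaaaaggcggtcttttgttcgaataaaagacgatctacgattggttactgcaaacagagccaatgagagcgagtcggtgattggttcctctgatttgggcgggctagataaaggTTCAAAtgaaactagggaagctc
Cdc20: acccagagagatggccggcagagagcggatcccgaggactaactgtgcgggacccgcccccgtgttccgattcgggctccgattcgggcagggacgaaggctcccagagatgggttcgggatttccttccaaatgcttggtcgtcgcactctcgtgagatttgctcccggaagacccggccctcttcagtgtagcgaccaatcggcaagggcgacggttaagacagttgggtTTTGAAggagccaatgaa
Ube2c: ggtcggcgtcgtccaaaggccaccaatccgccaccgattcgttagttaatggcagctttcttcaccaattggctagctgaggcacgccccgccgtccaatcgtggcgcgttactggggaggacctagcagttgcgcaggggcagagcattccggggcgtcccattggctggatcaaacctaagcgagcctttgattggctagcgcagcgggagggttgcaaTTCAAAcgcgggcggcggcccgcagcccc

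Cells with 1000 or more genes and no more than 10% mitochondrial UMIs (unique molecular identifiers, 1 per captured transcript) were retained and thinned to 2000 UMIs each, so that all were read at 1 depth. The retained cells numbered 3051 in WT, with 5821 UMIs at the median before thinning, and 4332 in KO, with 7290.5. A further 239 WT and 11 KO cells were too shallow. The libraries share 75 barcode sequences among all that are listed and 0 among the retained cells. The sort's markers were present: UMIs of Ptprc, the gene of CD45, were seen in 54.3% (WT) and 56.3% (KO) of the thinned cells, and UMIs of Il7r, the gene of CD127, in 70.7% and 72.2%. The WT library stands apart by its shallow barcodes. It lists 13067 barcodes under 1000 genes with no more than 10% mitochondrial UMIs, against 212 such barcodes in KO. Whatever their mitochondrial share, 4033 of 20293 listed barcodes reached 1000 genes in WT and 5650 of 8476 in KO. The G2/M genes summed to 2222 counts per 1000000 UMIs (CPM) in the 13067 barcodes of WT and to 786 CPM in the 212 of KO. The main comparisons of the libraries are therefore also given for deep cells.

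The G2/M genes marked their phase in both libraries, and the S phase genes did so in part. Cells were put in states by 36 other S phase genes and 43 other G2/M genes, none of them among the 36. The G2/M state needed UMIs of at least 5 other G2/M genes, the S state at least 5 other S phase genes and fewer than 5 other G2/M genes, and the low state at most 2 of each. The low state held 39.1% of WT and 55.1% of KO cells, the S state 21.2% and 14.2%, and the G2/M state 21.8% and 10.9%. A gene was called higher when it was at least 1.5-fold higher on CPM + 5 and the interval of the ratio left out 1. All 20 G2/M genes were higher in the G2/M than in the S state in WT, where 5.78% of all measured genes were, and all 20 in KO, where 7.02% were. Their median log2 ratio was 2.32 in WT and 2.86 in KO, against 0.02 and 0.03 over all genes. Against the low state all 20 were again higher in both libraries, as were 19% and 19.2% of all measured genes.

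**Figure D1:**
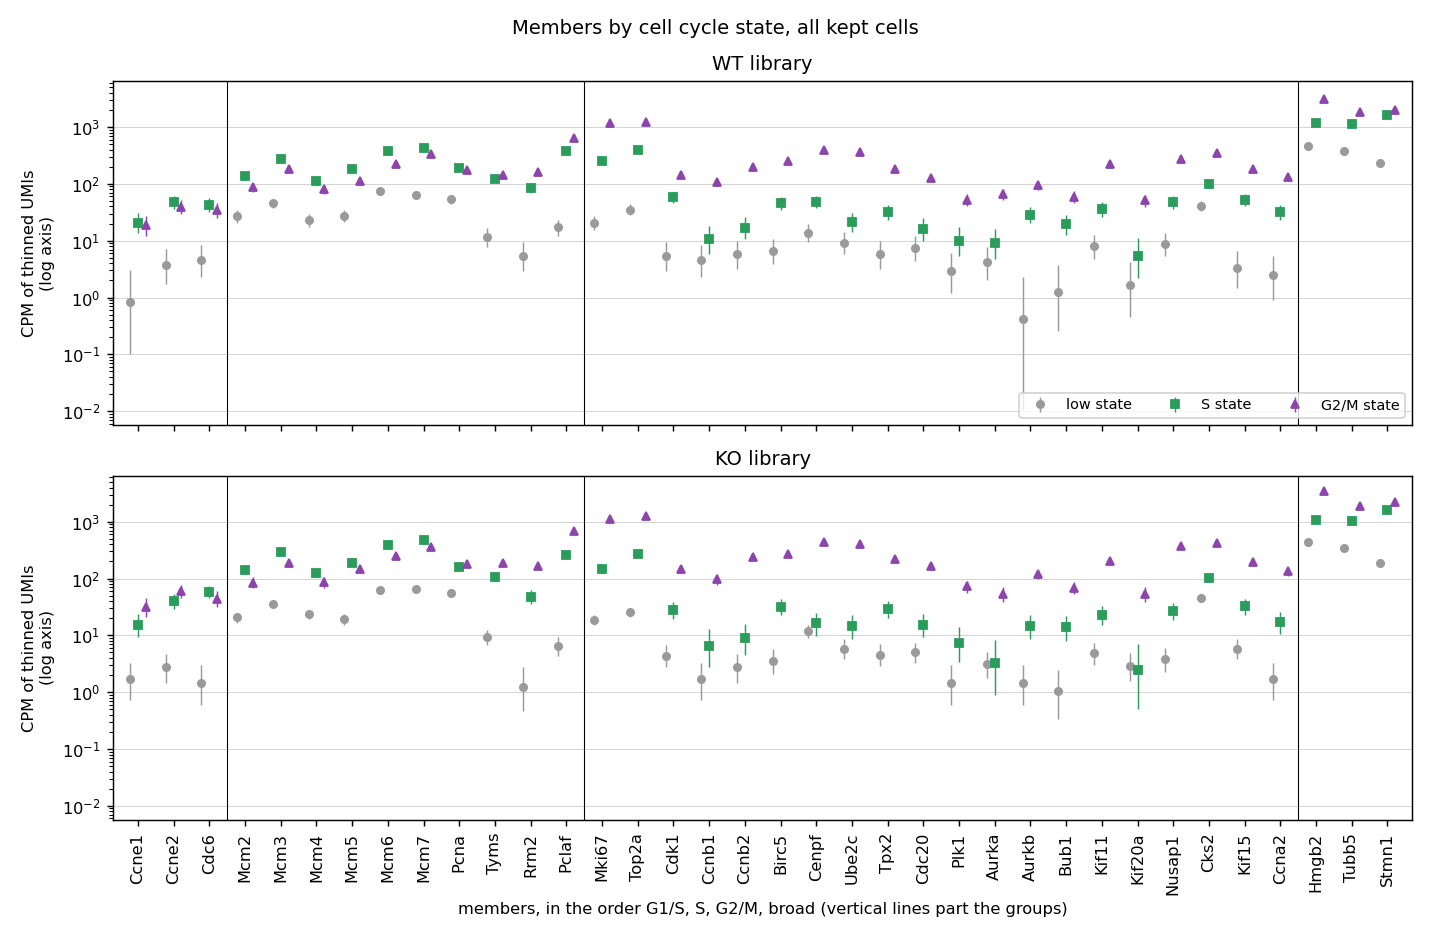
Level of each of the 36 genes in CPM of thinned UMIs (log axis) in the low, S and G2/M states of the WT and KO libraries, with exact Poisson intervals as bars. The 20 G2/M genes stand highest in the G2/M state in both libraries, Mcm2 to Mcm7 stand highest in the S state, and Pclaf and Rrm2 stand higher in the G2/M than in the S state.

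Ube2c, the conjugating enzyme of the anaphase-promoting complex, had the highest ratio of the G2/M over the S state in both libraries, on CPM + 5. Its level in the low, S and G2/M states was 9.21, 21.6 and 363 CPM in WT and 5.87, 14.6 and 399 CPM in KO. The G2/M state thus stood 16.8-fold (11.5 to 25.6) above the S state in WT and 27.3-fold (17.1 to 46.6) in KO. Ccnb2, a cyclin of mitosis, gave 11.5-fold (7.40 to 18.6) in WT and 26.7-fold (14.6 to 54.2) in KO. For Ccnb1, the other B-type cyclin, the values were 9.94-fold (5.73 to 18.6) and 15.0-fold (7.30 to 35.8). The kinetochore gene Cenpf had 388 CPM in the G2/M state against 48.6 CPM in the S state of WT, and 431 against 16.2 CPM in KO. Cdc20, which activates the anaphase-promoting complex, had 125 against 16.2 CPM in WT and 164 against 15.4 CPM in KO.

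Other G2/M genes were already made in the S state. Top2a, the topoisomerase that untangles replicated DNA, stood at 35.2, 389 and 1213 CPM in the low, S and G2/M states of WT, and at 25.8, 271 and 1280.1 CPM in those of KO. Cdk1, the mitotic kinase, stood at 5.44, 57.9 and 144 CPM in WT and 4.40, 28.4 and 147 CPM in KO. Mki67, a coat of mitotic chromosomes and the usual marker of proliferation, was higher in the G2/M than in the S state by 4.73-fold (4.19 to 5.34) in WT, from 249.2 to 1178 CPM, and by 7.68-fold (6.56 to 9.04) in KO, from 147 to 1133 CPM. Cyclin A2 (Ccna2), which acts from S phase on, gave 4.2004-fold (2.98 to 6.05) and 7.95-fold (4.99 to 13.3), and the checkpoint kinase Bub1 gave 3.07-fold (1.94 to 5.03) and 4.99-fold (2.89 to 9.08). Of the G2/M genes with enough UMIs to measure, 16 of 16 in WT and 11 of 12 in KO were higher in the S than in the low state, a call made of 17.7% and 17.2% of all measured genes. Cks2, a small partner of the cyclin-dependent kinases, kept 41.0 CPM in the low state of WT and 46.1 CPM in that of KO, against 346 and 423 CPM in the G2/M state.

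The S phase genes split into the helicase genes, which stood highest in the S state, and Rrm2 and Pclaf, which stood highest in the G2/M state. Mcm6 had 75.4, 376 and 224 CPM in the low, S and G2/M states of WT, and 63.3, 384 and 248 CPM in those of KO. Mcm7 had 63.7, 434 and 335 CPM and 65.1, 476 and 357 CPM. By the rule of size 3 of the 10 genes were higher in the S than in the G2/M state in each library, a call made of 2.89% of measured genes in WT and 3.33% in KO. With the fold of the S over the G2/M state in brackets, these were Mcm2 (1.58), Mcm5 (1.63), Mcm6 (1.67) in WT and Mcm2 (1.69), Mcm3 (1.60), Mcm6 (1.55) in KO. With cells thinned to 4000 UMIs, which leaves out shallower cells, 0 of the 10 met the rule in either library, and with another random draw 1 did in WT. Pcna did not differ between the states beyond its interval, with 188 CPM in the S and 176 CPM in the G2/M state of WT, and 160.5 and 181 CPM in KO.

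Pclaf ran the other way, at 17.2, 378 and 643 CPM in the low, S and G2/M states of WT and at 6.49, 261 and 686 CPM in those of KO. Rrm2, the regulated subunit of ribonucleotide reductase, was higher in the G2/M than in the S state by 1.91-fold (1.51 to 2.43) in WT and by 3.43-fold (2.52 to 4.71) in KO. Tyms, thymidylate synthase, had a G2/M over S ratio of 1.17-fold (0.946 to 1.45) in WT and 1.73-fold (1.37 to 2.18) in KO, so it met the rule in KO alone. All 10 S phase genes were higher in the S than in the low state in both libraries, with Pcna at the low end (3.53-fold in WT and 2.93-fold in KO) and Pclaf at the high end (22.0-fold in WT and 40.2-fold in KO).

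The 3 G1/S genes were scarce. Ccne2 had 3.77, 47.1 and 39.8 CPM in the low, S and G2/M states of WT and 2.72, 39.7 and 60.3 CPM in those of KO. Cdc6 had 4.61, 43.2 and 34.5 CPM and 1.47, 57.5 and 44.4 CPM, with G2/M over S ratios whose intervals hold 1. The G2/M over S ratio of Ccne2 was 0.845-fold (0.574 to 1.24) in WT and 1.52-fold (1.02 to 2.27) in KO, short of the rule on CPM + 5. Ccne1 had only 59 UMIs in all retained WT cells and 60 in all retained KO cells. Its ratio was 0.901-fold (0.501 to 1.61) in WT and 2.06-fold (1.12 to 3.87) in KO. It met the rule in KO, with 19 UMIs in the S and 30 in the G2/M state. The broad genes were present in every state. Hmgb2, a chromatin protein, had 457, 1186 and 3126 CPM in WT and 447, 1062 and 3419.7 CPM in KO. Stmn1, which destabilises microtubules, had 229.9, 1605 and 1971 CPM and 186, 1623 and 2252 CPM, and Tubb5, a beta tubulin, was higher in the G2/M than in the S state by 1.60-fold (1.503 to 1.71) and 1.81-fold (1.68 to 1.95).

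**Figure D2:**
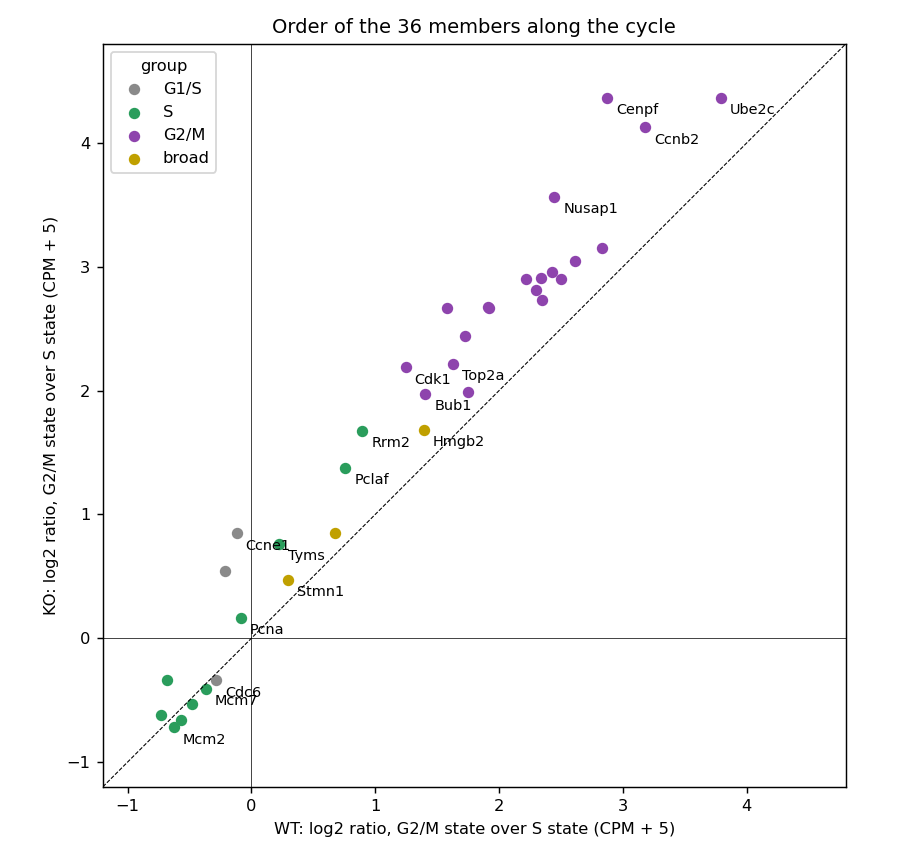
Log2 ratio of each gene's level (CPM + 5) in the G2/M state over the S state, with WT on the horizontal and KO on the vertical axis, coloured by phase group, and a dashed line of equal ratios. The genes run in much the same order in both libraries, from the helicase genes at the lower left to Ube2c at the upper right. All 20 G2/M genes lie above the dashed line, as do 31 of the 36 genes in all.

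The order of the genes along the cycle was much the same in both libraries, but Ccne1 and Ccne2 stood higher in the G2/M than in the S state in KO alone. Across the 36 genes the log2 ratios of the G2/M over the S state had a Pearson correlation of 0.978 and a Spearman correlation of 0.980 between the libraries. The genes share cells and state lists and are not independent replicates. The ratio was larger in KO for 20 of 20 G2/M genes and for 31 of all 36 genes, among them 6 of 10 S phase genes. In 19 of the 20 G2/M genes the S state level was lower in KO than in WT, so the S state of WT held more transcripts of these 19. How many of all measured genes moved likewise was not counted, so neither count can be set against a background. S state cells had 5334 UMIs at the median before thinning in WT and 15151 in KO, and the part of depth in the difference was not tested. With cells of at least 8000 UMIs alone, 20 of 20 G2/M genes were again higher in the G2/M state in each library.

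Cells were next grouped by lists of lineage markers without cell cycle genes. A cell took the class with the most detected markers, at least 3 and at least 1 more than the next list, a limit set after the data were seen, and classes carry the ending "like". A cell was S-positive with UMIs of at least 2 of the 10 S phase genes and G2/M-positive with UMIs of at least 2 of the 20 G2/M genes. Over all depths, both kinds were common among early cells and less so among innate lymphocytes in both libraries. Lymphoid progenitor-like cells were S-positive in 66.1% (62.6 to 69.6) of 729 WT cells and 51.3% (48.2 to 54.3) of 1075 KO cells, with Clopper-Pearson intervals in brackets. Among plasmacytoid dendritic cell-like cells, which carried 3 progenitor markers at the median, 75.6% (71.1 to 79.8) of 390 WT cells and 67.0% (61.2 to 72.4) of 285 KO cells were S-positive. In ILC2-like cells the share was 14.0% (11.7 to 16.6) of 808 and 8.35% (6.55 to 10.5) of 814. Cells with markers of natural killer (NK) cells or ILC1 lay at 19.3% of 192 and 12.0% of 659, and ILC precursor-like cells at 18.8% of 112 and 16.1% of 454. The classes also differed in depth, with 9170 and 13951 UMIs at the median in lymphoid progenitor-like cells and 5319 and 4601.5 in ILC2-like cells. From 8000 to 16000 UMIs 57.0% of 121 and 14.9% of 94 such WT cells were S-positive. At 16000 UMIs or more the shares were 72.7% of 256 and 73.9% of 23, and 25.9% of 27 in WT ILC precursor-like cells. The part of depth in this contrast was not tested.

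G2/M-positive cells were distributed likewise, but for the basophil, mast cell or eosinophil-like cells. These were G2/M-positive in 62.7% (56.2 to 68.9) of 236 WT cells and 39.2% (31.9 to 46.8) of 176 KO cells, and S-positive in 44.5% and 34.7%. Lymphoid progenitor-like cells were G2/M-positive in 51.0% (47.3 to 54.7) and 29.5% (26.8 to 32.3), plasmacytoid dendritic cell-like cells in 59.5% (54.4 to 64.4) and 41.4% (35.6 to 47.4), and ILC2-like cells in 8.54% (6.70 to 10.7) and 3.32% (2.20 to 4.79). The ILC3-like cells had 2 of 133 in KO (1.504%) and 0 of 10 in WT, which allows up to 30% by a limit of 3 counts. Free RNA in the droplets adds UMIs to cells that do not make a gene, and shares near that of the ILC3-like cells can be background. Many cells lay near the limit: 1192 WT and 1667 KO cells had UMIs of 1 or 2 S phase genes, and 848 and 1143 had UMIs of 1 or 2 G2/M genes.

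**Figure D3:**
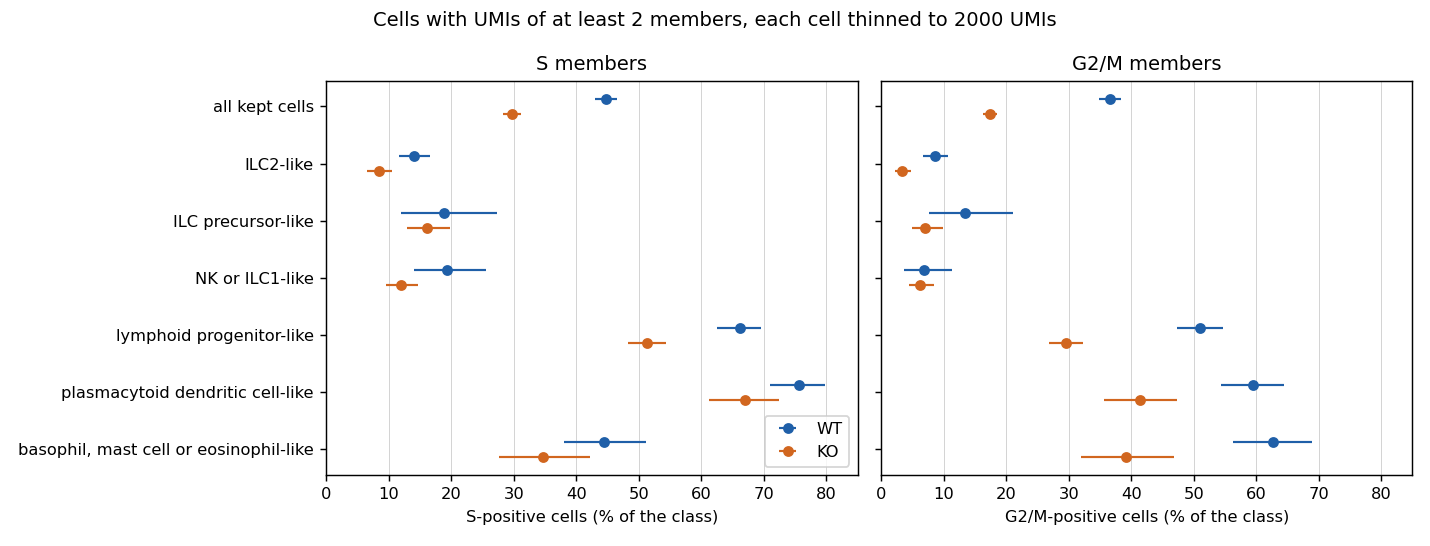
Share of S-positive and of G2/M-positive cells in percent of each marker-gated class and of all retained cells, in the WT and KO libraries, with Clopper-Pearson intervals as bars. The shares are lower in KO in 6 of 6 classes for both phases, by the least in NK or ILC1-like cells for G2/M.

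Over all retained cells 44.7% were S-positive in WT against 29.7% in KO, a ratio of KO over WT of 0.664 (0.625 to 0.705), and 36.6% were G2/M-positive against 17.4%, a ratio of 0.475 (0.439 to 0.515). With the KO cells weighted to the class mix of WT the KO shares were 34.3% and 20.4%. The ratio was under 1 in 6 of 6 classes for both phases, and its interval lay under 1 in 5 of 6 for S and in 5 of 6 for G2/M. In ILC2-like cells it was 0.597 (0.449 to 0.794) for S and 0.388 (0.252 to 0.5996) for G2/M, and in lymphoid progenitor-like cells 0.775 (0.717 to 0.838) and 0.578 (0.514 to 0.649). ILC precursor-like cells gave 0.858 (0.553 to 1.33) and 0.526 (0.295 to 0.938), and NK or ILC1-like cells 0.622 (0.436 to 0.888) and 0.919 (0.503 to 1.68). Over 10 random draws of the thinning, the ratio for S in NK or ILC1-like cells ran from 0.622 to 1.15, and the others stayed under 1 in all 10. A lower share of positive cells cannot be told apart from fewer transcripts per cycling cell.

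The libraries differed most in shallow cells. Among cells with 2000 to 4000 UMIs before thinning, 57.3% of 987 WT cells were S-positive and 56.7% G2/M-positive, against 8.06% and 4.53% of 707 KO cells. At 4000 to 8000 UMIs the shares were 18.8% and 13.6% in 964 WT cells and 10.0% and 4.79% in 1630 KO cells. At 8000 to 16000 UMIs they were 41.5% and 24.8% in 557 WT cells and 41.8% and 21.8% in 1297 KO cells. In KO the shares were low up to 8000 UMIs and high above, while WT had high shares at both ends of the depth range. Among the deepest cells, with 16000 UMIs or more, 71.1% of 543 WT and 75.1% of 698 KO cells were S-positive, and 52.9% and 51.6% were G2/M-positive.

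**Figure D4:**
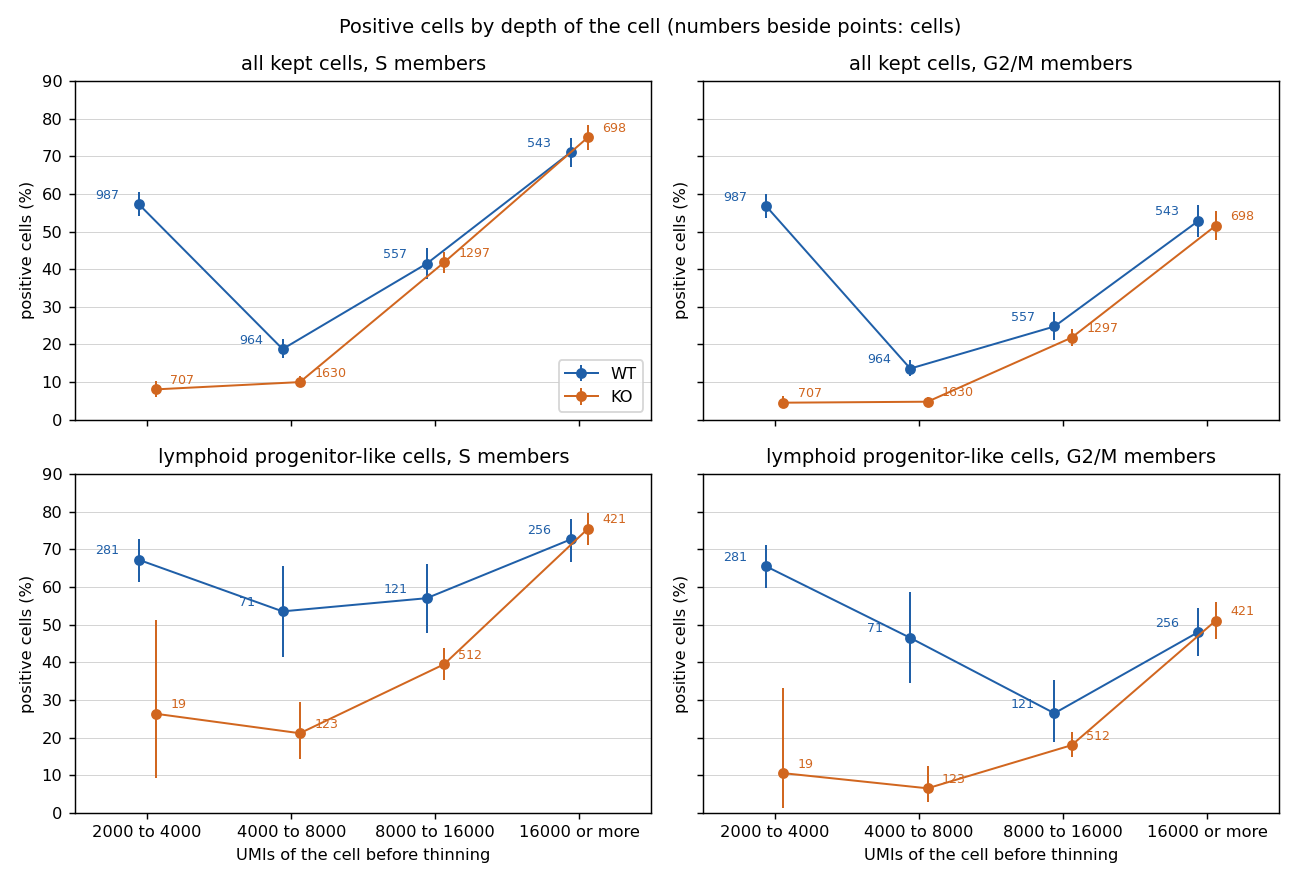
Share of S-positive and of G2/M-positive cells by the number of UMIs a cell had before thinning, for all retained cells and for lymphoid progenitor-like cells, in the WT and KO libraries, with Clopper-Pearson intervals as bars. The libraries lie close together at 16000 UMIs or more and far apart at 2000 to 4000 UMIs, where the S-positive share over all retained cells is 57.3% in WT and 8.06% in KO.

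Lymphoid progenitor-like cells also differed most when shallow, but the difference reached farther up. Those of 2000 to 4000 UMIs were G2/M-positive in 65.5% of 281 WT cells and 10.5% of 19 KO cells, and those of 4000 to 8000 UMIs in 46.5% of 71 and 6.50% of 123. From 8000 to 16000 UMIs 26.4% of 121 WT and 18.0% of 512 KO cells were G2/M-positive, and 57.0% and 39.5% were S-positive. At 16000 UMIs or more 48.0% of 256 WT and 51.1% of 421 KO cells were G2/M-positive, and 72.7% and 75.5% S-positive. In WT, ILC2-like cells of 2000 to 4000 UMIs were G2/M-positive in 19.8% of 167 cells and those of 4000 to 8000 UMIs in 3.82% of 524. G2/M-positive cells had 3980.5 UMIs at the median in WT, against 5933 in WT cells positive for neither phase, and 15641 against 5658 in KO. In the shallowest band the median mitochondrial share was 4.86% in WT and 5.12% in KO, and Malat1, a nuclear RNA, stood at 42688 and 56752 CPM. The 13 markers of granulocytes or monocytes summed to 989 and 231 CPM there and to 644 and 294 CPM over all retained cells, with 1 of the 13 at 0 in each library. Erythroid markers summed to 12.9 and 9.58 CPM over all retained cells. Malat1 fell with depth in both libraries, to 19233 and 19231 CPM at 16000 UMIs or more. The part of all these values in the difference was not tested.

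With cells of at least 8000 UMIs alone, a choice made after the data were seen, the differences were smaller and in some classes turned round. Over all such cells 56.4% of 1100 WT and 52.0% of 1995 KO cells were S-positive, a ratio of 0.923 (0.863 to 0.987), and the G2/M-positive shares were 40.2% and 31.9%, a ratio of 0.793 (0.720 to 0.874). The mix of depths still differed, since 543 of these WT cells and 698 of these KO cells had 16000 UMIs or more, and within neither depth band given above was the S-positive share lower in KO. The ratio was under 1 in 1 of 6 classes for S and in 3 of 6 for G2/M. Lymphoid progenitor-like cells gave 0.799 (0.728 to 0.877) for S and 0.738 (0.635 to 0.857) for G2/M, but at 16000 UMIs or more neither share was lower in KO. Basophil, mast cell or eosinophil-like cells gave 1.03 (0.765 to 1.38) for S and 0.713 (0.567 to 0.896) for G2/M, and their G2/M-positive share was lower in KO in both bands, at 73.2% and 46.3% from 8000 to 16000 UMIs and 84.2% and 71.4% above. Plasmacytoid dendritic cell-like cells gave 1.03 (0.920 to 1.15) and 0.972 (0.802 to 1.18), and ILC2-like cells 1.03 (0.681 to 1.54) and 1.49 (0.801 to 2.78), on 118 WT and 84 KO cells. ILC precursor-like cells gave 1.21 (0.719 to 2.05) and 1.17 (0.559 to 2.44). NK or ILC1-like cells gave 2.14 (1.21 to 3.78) and 1.55 (0.750 to 3.19), on 63 and 86 cells. Deep cells were thinned and classed anew, so their numbers by class differ slightly from those of the bands.

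Next the single genes were compared between the libraries, in CPM of thinned UMIs summed over a class. A gene counted as measured at a mean of at least 10 CPM and at least 20 UMIs in sum, and it was called lower or higher in KO by the same 1.5-fold rule. Over all retained cells 17 of 35 measured genes were lower in KO and 0 were higher, where 2.04% of all measured genes were lower and 2.09% higher. The 17 were 3 of 10 S phase genes (Tyms, Rrm2 and Pclaf) and 14 of 20 G2/M genes. Mki67 had 333 CPM (interval 318 to 347) in WT cells and 161 CPM (152 to 169) in KO cells, 2.07-fold lower (1.93 to 2.22) in KO. Top2a had 384 and 202 CPM, 1.90-fold lower (1.79 to 2.02), and Pclaf had 240.4 and 118 CPM, 2.03-fold lower (1.87 to 2.20). The helicase genes had log2 ratios from -0.41 (Mcm5) to -0.27 (Mcm4), short of the rule. With cells of at least 8000 UMIs 1 of 36 genes was lower and 0 were higher, where 2.45% and 1.11% of all measured genes were. That gene was Kif11, a spindle motor, with 80.0 and 49.4 CPM.

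In lymphoid progenitor-like cells Pcna, Tyms, Rrm2 and Pclaf were lower in KO among the S phase genes, and none of the 6 helicase genes was called. Of 35 measured genes 12 were lower and 0 higher, where 3.67% of all measured genes were lower and 2.26% higher. The count was 20 with another random draw of the thinning and 3 without thinning. For counts under other settings, here and in the classes below, the share of all genes called is given only for deep cells. Pclaf had 295 CPM (interval 268 to 324) in WT cells and 139.5 CPM (124 to 156) in KO cells, 2.11-fold lower (1.82 to 2.46). Tyms had 102 and 50.2 CPM, 2.03-fold lower (1.58 to 2.63), and Rrm2 65.2 and 30.2 CPM, 2.16-fold lower (1.56 to 3.00). Pcna had 154 and 95.3 CPM, 1.61-fold lower (1.33 to 1.957), and cyclin E2 (Ccne2) 28.1 and 15.8 CPM, 1.78-fold lower (1.101 to 2.89). For Mcm2 to Mcm7 the log2 ratios ran from -0.29 (Mcm7) to -0.06 (Mcm4).

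Of the 20 G2/M genes 7 were lower in KO in these cells. Top2a had 532 and 286 CPM, 1.86-fold lower (1.67 to 2.08), and Mki67 429 and 242 CPM, 1.77-fold lower (1.57 to 1.99). Cyclin A2 (Ccna2) had 54.2 and 27.9 CPM and Aurka, a kinase of the spindle poles, 28.1 and 13.02 CPM. The others were Birc5, of the chromosomal passenger complex, at 84.4 and 53.0 CPM, and the spindle motors Kif11 at 74.1 and 40.0 CPM and Kif15 at 86.4 and 52.6 CPM. The other 13 were not called. Of these the 4 with ratios nearest 1, chosen after their values were seen, were Cks2 with 141 and 137 CPM, Cdc20 with 46.0 and 43.7 CPM, the mitotic kinase Plk1 with 17.8 and 16.3 CPM and Ccnb2 with 63.8 and 54.4 CPM, and the intervals of their ratios hold 1.

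**Figure D5:**
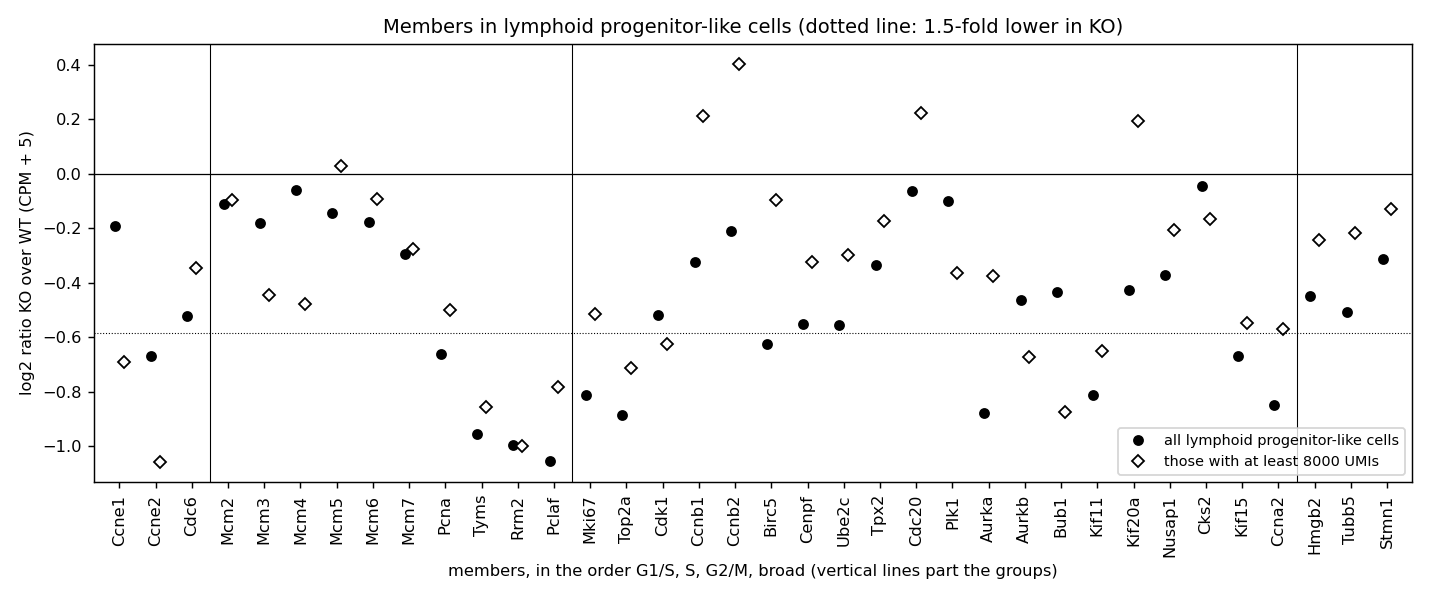
Log2 ratio of KO over WT (CPM + 5) for each of the 36 genes in all lymphoid progenitor-like cells and in those with at least 8000 UMIs, with a dotted line at a 1.5-fold lower level. Tyms, Rrm2 and Pclaf lie under the dotted line in both sets, while Mcm5, Ccnb1, Ccnb2, Cdc20 and Kif20a lie above 0 in the deep cells.

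The deep lymphoid progenitor-like cells, 359 in WT and 893 in KO, gave calls that overlapped in part with these. Of 36 measured genes 9 were lower in KO and 0 higher, where 3.41% of all measured genes were lower and 2.03% higher. Tyms had 89.1 and 47.0 CPM, 1.90-fold lower (1.35 to 2.66), Rrm2 59.9 and 27.4 CPM, 2.18-fold lower (1.41 to 3.36), and Pclaf 270.2 and 155 CPM, 1.74-fold lower (1.44 to 2.10). Ccne2 had 40.4 and 16.8 CPM, and the G2/M genes among the 9 were Top2a (501 and 304 CPM), Cdk1 (50.1 and 30.8 CPM), Aurkb (40.4 and 23.5 CPM), Bub1 (23.7 and 10.6 CPM) and Kif11 (69.6 and 42.6 CPM). Aurkb is a kinase of the passenger complex. Of the 7 G2/M genes called over all depths, Top2a and Kif11 were called again, while Pcna, with 153 and 107 CPM, and Mki67, with 382 and 266 CPM, fell short of the rule here. The helicase genes ran from -0.48 (Mcm4, 94.7 and 66.6 CPM) to 0.03 (Mcm5, 114 and 116 CPM) on the log2 scale, with none called. Ccnb2 had 58.5 and 78.9 CPM and Cdc20 34.8 and 41.4 CPM, also with intervals that hold 1. The median log2 ratio of the 36 genes was -0.35, against -0.06 over all genes. The mix of depths still differed, with 256 WT and 421 KO cells at 16000 UMIs or more and 121 and 512 from 8000 to 16000. At 16000 UMIs or more the S phase genes summed to 2123 and 2013 CPM and the G2/M genes to 2221 and 2399 CPM. From 8000 to 16000 UMIs the sums were 1393 and 906 CPM for S phase genes and 1169 and 857 CPM for G2/M genes.

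Plasmacytoid dendritic cell-like cells differed in mitotic genes. Of 36 measured genes 6 were lower in KO, where 3.12% of all measured genes were, and all 6 were G2/M genes. The count was 1 without thinning, and 3 with cells thinned to 4000 UMIs. Mki67 had 672 CPM (interval 615 to 732) in WT cells and 319 CPM (275 to 369) in KO cells, 2.10-fold lower (1.77 to 2.50). Cdk1 had 101 and 56.1 CPM, Ccnb1 62.8 and 31.6 CPM, Ube2c 159 and 102 CPM and Kif11 133 and 84.2 CPM. Aurka had 31 UMIs in WT and 3 in KO, 7.55-fold lower (2.36 to 38.6), but its log2 ratio was 0.95 with at most 5% mitochondrial UMIs. Cdc6 was the 1 gene higher in KO, where 2.35% of all measured genes were, with 39.7 and 70.2 CPM, a call that was lost with another random draw. The helicase genes ran from -0.19 (Mcm2) to 0.15 (Mcm7) on the log2 scale. In cells of at least 8000 UMIs 2 of 35 measured genes were lower and 0 higher, where 2.86% and 2.26% of all measured genes were. These were Mki67, with 540.3 and 339 CPM, and Pcna, with 235 and 138 CPM, while Top2a had 647 and 638 CPM.

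In ILC2-like cells the genes were scarce. Of 21 measured genes 8 were lower in KO and 0 higher, where 3.18% of all measured genes were lower and 2.24% higher. Pclaf had 43.9 CPM (interval 34.3 to 55.4) in WT cells and 14.7 CPM (9.45 to 21.9) in KO cells, 2.98-fold lower (1.85 to 4.95), and Mcm5 31.6 and 11.7 CPM, 2.70-fold lower (1.57 to 4.85). Top2a had 71.2 and 31.9 CPM, Mki67 44.6 and 23.3 CPM and Nusap1, a spindle protein, 16.7 and 4.91 CPM. Mcm3, Mcm4 and Stmn1 were also lower, while Pcna had 55.1 and 61.4 CPM and Hmgb2 504 and 475 CPM. In the 118 WT and 84 KO cells of at least 8000 UMIs 0 of 15 measured genes were lower in KO and 4 were higher, where 2.21% and 3.94% of all measured genes were. The 4 were Mki67 with 153 and 268 CPM, Top2a with 123 and 232 CPM, Hmgb2 with 729 and 1137 CPM and Stmn1 with 411 and 667 CPM. The count of lower genes was also 0 with cells thinned to 4000 UMIs and with at most 5% mitochondrial UMIs.

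ILC precursor-like cells showed few calls. Of 18 measured genes 3 were lower in KO, where 2.87% of all measured genes were, namely Pclaf with 138 and 40.7 CPM, Top2a with 147 and 76.0 CPM and Stmn1 with 304 and 199 CPM. Ube2c was called higher, as 3.69% of measured genes were, with 0 UMIs in 112 WT cells and 20 in 454 KO cells. In NK or ILC1-like cells 0 of 15 measured genes were lower and 0 higher, where 2.35% and 2.31% of all measured genes were. Top2a had 99.0 and 69.8 CPM there. In basophil, mast cell or eosinophil-like cells 5 of 32 measured genes were lower and 0 higher, where 4.23% and 3.57% of all measured genes were, and the count of lower genes ran from 2 to 10 over the other settings. These were Pclaf with 242 and 145 CPM, Ccnb2 with 129 and 56.8 CPM, Birc5 with 176 and 102 CPM, Tubb5 with 956 and 557 CPM and Stmn1 with 706 and 438 CPM. Mki67 had 672 and 608 CPM and Top2a 729 and 676 CPM in these cells. Over the 6 classes Pclaf was lower in 4, and Mki67, Top2a and Stmn1 were lower in 3 each.

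Other genes of the cycle were counted beside the 36. In ILC2-like cells 8 of 24 measured other S phase genes were lower in KO. Of 13 other G2/M genes 0 were lower and 1 higher, where 3.18% and 2.24% of all genes were. In ILC precursor-like cells 0 of 12 other G2/M genes were lower (2.87% of all genes). In NK or ILC1-like cells 0 of 15 were lower and 1 higher (2.35% and 2.31%). The lower ones were 6 of 40 in plasmacytoid dendritic cell-like cells (3.12%) and 9 of 37 in basophil, mast cell or eosinophil-like cells (4.23%). In lymphoid progenitor-like cells 9 of 36 measured other S phase genes and 13 of 40 measured other G2/M genes were lower in KO and 0 were higher, with median log2 ratios of -0.42 and -0.33 against -0.04 over all genes, of which 3.67% were lower. In those of at least 8000 UMIs 5 of 36 and 5 of 38 were lower, with medians of -0.40 and -0.18, where 3.41% of all genes were lower. Rad51ap1, of homologous recombination, had 47.3 and 20.9 CPM, and Spc25, of the kinetochore, had 56.2 and 22.8 CPM. Of 17 measured G1 cyclins, kinases and E2F factors 3 were lower: E2f1 with 36.4 and 19.1 CPM, Mycn with 18.5 and 6.98 CPM and Skp2, which marks cell cycle inhibitors for breakdown, with 32.2 and 18.1 CPM. The G1 kinase Cdk6 had 538 and 565 CPM and its cyclin Ccnd2 388 and 445 CPM, and both were named after their values were seen. Of 16 measured inhibitors and quiescence genes 3 were higher and 0 lower, where 2.26% of all genes were higher and 3.67% lower. In the deep cells 4 of 16 were higher and 1 lower, where 2.03% of all genes were higher and 3.41% lower. The 3 called over all depths were Btg2, an antiproliferative gene, with 267 and 463 CPM, the kinase inhibitor Cdkn1a with 54.9 and 93.0 CPM and Klf2, a factor of lymphocyte quiescence, with 125 and 213 CPM. Btg2 was higher in KO in 5 of the 6 classes and had 552 and 901 CPM in ILC2-like cells. The share of all measured genes called higher ran from 2.24% in ILC2-like cells to 3.69% in ILC precursor-like cells.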

How the data were processed

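The deposited files hold UMI count values per gene and cell barcode, which the authors made with Cell Ranger 3.1.0, per the file headers. The submitters' processing notes name mm10, and Seurat without a role. Which annotation release was used was not given in the sources used here. Doublets were not removed, except in an alternative. Cells were filtered, thinned with 1 random seed, classed by 13 marker lists (cells with equal counts of 2 lists stayed apart as ambiguous) and put in states as the report describes. Intervals are Clopper-Pearson for shares, exact Poisson for UMI sums, exact binomial for ratios of sums and the log method for ratios of shares, at 95%. All 36 genes are named, with full values for the more abundant of each group and those past the rule of size; from other lists up to 4 genes past the rule are named, and outside the lists the leading 10 in the G2/M state. The members and lists were chosen with earlier results of these data known. The computations were tested on simulated data. Tools were Python 3.11.15, numpy 2.4.6, scipy 1.17.1, scanpy 1.11.5 and edgeR 4.0.16 (scaling factors only).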

Additional observations from a re-analysis of the deposited data

How the results depend on the processing

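The alternatives left 47 of 77 ratios of S-positive shares and 50 of 77 ratios of G2/M-positive shares within the counting interval, and turned 11 and 3 of them round. Of 384 ratios of single genes called between the libraries, 259 stayed past the rule, 110 fell short of it and 15 changed sign. The 20 of 20 G2/M genes higher in the G2/M state held in both libraries under each setting run, except for 19 in KO with cells of at least 500 genes thinned to 1000 UMIs. A gate with 1 more marker or a lead of 2 markers, TMM scaling (edgeR), no filter on low levels and a pseudocount of 1 CPM turned no value round. No cause of a change was tested; the settings at 4000 and 8000 UMIs use fewer, deeper cells by construction. Cells of at least 8000 UMIs, the lead of 2 and the 10 draws were chosen after seeing the data. The counts of genes lower or higher in KO that follow carry neither the number measured nor the share of all genes called. They therefore cannot be set against a background, except for cells of at least 8000 UMIs, where both are given above.

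With cells thinned to 4000 UMIs, the ratio of S-positive shares was 0.932 over all retained cells, 1.11 in ILC2-like cells, 1.05 in NK or ILC1-like cells and 0.850 in lymphoid progenitor-like cells, and the ratio of G2/M-positive shares was 0.836 over all retained cells, 0.900 in ILC2-like cells, 1.15 in ILC precursor-like cells, 0.742 in lymphoid progenitor-like cells, 0.888 in plasmacytoid dendritic cell-like cells and 0.951 in basophil, mast cell or eosinophil-like cells. Here genes lower in KO numbered 5 over all retained cells, 0 in ILC2-like cells, 3 in plasmacytoid dendritic cell-like cells and 2 in basophil, mast cell or eosinophil-like cells, and those higher numbered 0 in plasmacytoid dendritic cell-like cells. The log2 ratio was 0.32 for Nusap1 in ILC2-like cells and -0.19 for Cdc6 in plasmacytoid dendritic cell-like cells. S phase genes higher in the S than in the G2/M state numbered 0 in WT and 0 in KO. Without thinning, the ratio of S-positive shares was 0.852 over all retained cells, 1.00 in lymphoid progenitor-like cells and 0.981 in plasmacytoid dendritic cell-like cells, and the ratio of G2/M-positive shares was 0.718 over all retained cells, 0.864 in lymphoid progenitor-like cells, 0.911 in plasmacytoid dendritic cell-like cells and 0.868 in basophil, mast cell or eosinophil-like cells. Under it, genes lower in KO numbered 4 over all retained cells, 3 in lymphoid progenitor-like cells, 1 in plasmacytoid dendritic cell-like cells and 9 in basophil, mast cell or eosinophil-like cells, and those higher numbered 0 in plasmacytoid dendritic cell-like cells and 1 in basophil, mast cell or eosinophil-like cells. With cells of at least 500 genes thinned to 1000 UMIs, the ratio of S-positive shares was 0.484 over all retained cells, 0.299 in ILC2-like cells, 0.537 in ILC precursor-like cells, 0.571 in lymphoid progenitor-like cells and 1.04 in plasmacytoid dendritic cell-like cells, and the ratio of G2/M-positive shares was 0.314 over all retained cells, 0.0785 in ILC2-like cells, 0.163 in NK or ILC1-like cells and 0.466 in lymphoid progenitor-like cells. Here genes lower in KO numbered 28 over all retained cells and 19 in ILC2-like cells, and those higher numbered 0 in plasmacytoid dendritic cell-like cells. S phase genes higher in the S than in the G2/M state numbered 7 in KO. With at most 5% mitochondrial UMIs, the ratio of S-positive shares was 1.08 in ILC2-like cells and 0.971 in NK or ILC1-like cells. Under it, genes lower in KO numbered 0 in ILC2-like cells and 10 in basophil, mast cell or eosinophil-like cells, and those higher numbered 0 in plasmacytoid dendritic cell-like cells. The log2 ratio was 0.33 for Nusap1 in ILC2-like cells and 0.95 for Aurka in plasmacytoid dendritic cell-like cells. With doublets removed by Scrublet, the ratio of S-positive shares was 0.923 in NK or ILC1-like cells, and the ratio of G2/M-positive shares was 0.617 in ILC2-like cells and 0.978 in ILC precursor-like cells. Here genes lower in KO numbered 5 in ILC2-like cells and 3 in basophil, mast cell or eosinophil-like cells, and those higher numbered 0 in plasmacytoid dendritic cell-like cells. The log2 ratio was 0.0356 for Cdk1 in plasmacytoid dendritic cell-like cells. S phase genes higher in the S than in the G2/M state numbered 1 in WT and 5 in KO. With another random draw, the ratio of S-positive shares was 1.15 in NK or ILC1-like cells and 0.692 in lymphoid progenitor-like cells, and the ratio of G2/M-positive shares was 0.507 in lymphoid progenitor-like cells. Under it, genes lower in KO numbered 20 in lymphoid progenitor-like cells and 8 in basophil, mast cell or eosinophil-like cells, and those higher numbered 0 in plasmacytoid dendritic cell-like cells. S phase genes higher in the S than in the G2/M state numbered 1 in WT. With cells of at least 8000 UMIs, the ratio of S-positive shares was 0.923 over all retained cells, 1.03 in ILC2-like cells, 2.14 in NK or ILC1-like cells, 1.03 in plasmacytoid dendritic cell-like cells and 1.03 in basophil, mast cell or eosinophil-like cells, and the ratio of G2/M-positive shares was 0.793 over all retained cells, 1.49 in ILC2-like cells, 1.17 in ILC precursor-like cells, 0.738 in lymphoid progenitor-like cells and 0.972 in plasmacytoid dendritic cell-like cells. Here genes lower in KO numbered 1 over all retained cells, 0 in ILC2-like cells and 2 in plasmacytoid dendritic cell-like cells, and those higher numbered 4 in ILC2-like cells and 0 in plasmacytoid dendritic cell-like cells. The log2 ratio was 0.15 for Mcm3 in ILC2-like cells, 0.66 for Mcm5 in ILC2-like cells, 0.43 for Pclaf in ILC2-like cells, 0.79 for Mki67 in ILC2-like cells, 0.89 for Top2a in ILC2-like cells, 1.99 for Nusap1 in ILC2-like cells, 0.69 for Stmn1 in ILC2-like cells, 0.17 for Ccnb1 in plasmacytoid dendritic cell-like cells, 0.14 for Pclaf in basophil, mast cell or eosinophil-like cells and 0.29 for Birc5 in basophil, mast cell or eosinophil-like cells. Nusap1 fell short of the limits for a measured gene in these deep ILC2-like cells. With 1 gene enough to call a cell positive, the ratio of S-positive shares was 0.816 over all retained cells, 0.7999 in ILC2-like cells, 0.961 in NK or ILC1-like cells and 0.859 in lymphoid progenitor-like cells, and the ratio of G2/M-positive shares was 0.693 over all retained cells, 0.796 in ILC2-like cells, 0.705 in lymphoid progenitor-like cells, 0.860 in plasmacytoid dendritic cell-like cells and 0.834 in basophil, mast cell or eosinophil-like cells. With 3 genes needed, the ratio of S-positive shares was 0.596 over all retained cells, 0.317 in ILC2-like cells, 1.29 in NK or ILC1-like cells and 0.661 in lymphoid progenitor-like cells. With 1 more gene needed for a state, S phase genes higher in the S than in the G2/M state numbered 6 in KO.

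Scrublet marked 0 WT cells, so it had not worked there and the 274 WT cells with the highest scores were removed instead, and it marked 48 KO cells. No paired analysis was possible because each genotype has 1 library and the labels give no replicate number. Depth limits the scarce genes and the small classes, pooled animals hide variation between mice, and with 1 library per genotype a difference between genotypes cannot be told apart from one between preparations.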

Other observations

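The regulators in this paragraph were chosen after their values were seen. Among inhibitors of the cycle, Btg2 stood highest in the low state, at 522, 255 and 212 CPM in the low, S and G2/M states of WT and 730.4, 322 and 339 CPM in those of KO. Rbl2, a retinoblastoma-family protein, ran the same way, at 124, 50.2 and 54.1 CPM and 135, 68.1 and 62.4 CPM. The kinase inhibitor Cdkn2c ran with the G2/M genes instead, at 6.70, 18.5 and 38.3 CPM and 6.70, 12.2 and 41.2 CPM. So did Fzr1, an activator of the anaphase-promoting complex, at 20.1, 18.5 and 73.6 CPM and 25.6, 16.2 and 66.6 CPM. E2f1 stood at 4.61, 67.9 and 32.3 CPM in WT and 2.72, 47.0 and 38.1 CPM in KO, and Foxm1, a factor of G2/M gene transcription, at 1.68, 6.94 and 47.3 CPM and 1.68, 8.91 and 49.7 CPM.

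Outside all the lists, the genes with the highest fold in the G2/M state over all other cells were Depdc1a, Cdkn3 and Hist1h2ak in WT and Cdkn3, Cep55 and Neil3 in KO. Cdkn3, a phosphatase that acts on cyclin-dependent kinases, had 60.8 CPM in the G2/M state and 3.14 CPM elsewhere in WT, and 70.8 and 1.43 CPM in KO. Of the 10 leading genes in each library, Cdkn3, Hist1h2af, Ska1 and Prr11 led in both. Ska1, of the complex that ties kinetochores to microtubules, had 57.8 and 4.19 CPM in WT and 57.1 and 1.55 CPM in KO. The linker histone gene Hist1h1b had 964 CPM in the G2/M state of KO and 28.8 CPM in its other cells.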
